A study of Mus musculus with 8 samples.

Results

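The copines are a family of cytosolic proteins that bind membrane phospholipids when calcium rises. The 9 mouse genes Cpne1 to Cpne9 were taken by their symbols in the authors' deposited comparison and joined by Ensembl identifier to the read counts of each library, so the family is 9 of the 39179 genes listed. The family was selected on the low level of Cpne6 in the knockout libraries of these data. The values of Cpne6 in this contrast are therefore given as a description, while its 8 paralogs entered by name alone. After the filter on low counts, 8 of the 9 copines were tested among 14757 genes, and Cpne7 was not.

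RNA was sequenced from astrocytes of the spinal cord of mice aged 12 to 14 days on a mixed Swiss-Webster background. All animals carried the Aldh1l1-GFP reporter, and GFP-positive cells were sorted after papain dissociation. The control group was cre-negative (4 biological replicates, libraries S1, S2, S6 and S7). The conditional knockout group (cKO, 4 biological replicates, libraries S3, S4, S5 and S8) carried Aldh1l1-cre with floxed alleles of Kir4.1, the potassium channel subunit that Kcnj10 encodes. Cre was thus driven by regulatory elements of Aldh1l1, the gene whose reporter also defined the sort, and whether the control animals carried floxed alleles is not given in the sources used here.

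A copine has a pair of C2 domains, which dock on acidic phospholipids in the presence of calcium, followed by a von Willebrand A-like domain that binds other proteins. Copine-6, also called N-copine, is best known from neurons of the forebrain, where calcium entry moves it to the membrane of dendritic spines and where it has been linked to the small GTPase Rac1 and the BDNF receptor TrkB. Copines 1, 2 and 3 are made in many tissues, and copine-3 is known as a partner of the receptor tyrosine kinase ERBB2.

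Each library held 13892736 to 25065686 reads assigned to genes, with 17312 to 20470 genes detected. Kcnj10 averaged 1820 ± 468 CPM (SD, n = 4; CPM, counts scaled to a common library size) in the control and 34.0 ± 4.64 CPM (n = 4) in the cKO libraries, 1.87% of the control mean. The 10 astrocyte markers summed to 15958 to 23183 CPM in the control and 18528 to 23017 CPM in the cKO libraries, and none of them was at 0. Of that sum Slc1a2 alone averaged 10107 CPM in the control and 8942 CPM in the cKO libraries. Aldh1l1 itself averaged 139 CPM in the control and 282 CPM in the cKO libraries (edgeR quasi-likelihood test, adjusted p = 0.0179). Aqp4, the water channel of astrocyte endfeet, averaged 2007 and 4286 CPM (edgeR adjusted p = 0.0243). Its cKO libraries were all above the control libraries, as they were for 3.39% of all genes tested. Aldh1l1 and Aqp4 were the 2 of 10 astrocyte markers past an adjusted p of 0.05 by edgeR. Both were higher in the cKO group, as were 0.203% of all genes tested. The authors' FPKM columns bear the names of the count libraries, but only 3 of the 8 columns followed the counts of the same name, and all 8 matched a distinct library of their own group. FPKM values are therefore given only by group. In what follows, 4 control values always stand in the order S1, S2, S6, S7 and 4 cKO values in the order S3, S4, S5, S8.

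Cpne6 (ENSMUSG00000022212) lies on chromosome 14 of GRCm38, chr14:55510445-55517431 on the plus strand. By GENCODE release M21 its exons share no base with another gene that was counted here. The 9 copines are spread over 8 chromosomes, and only Cpne2 and Cpne7 (chr8:123117374-123135182) share one. The others are Cpne1 at chr2:156071842-156111965, Cpne3 at chr4:19519254-19570108, Cpne4 at chr9:104547286-105034544, Cpne5 at chr17:29155556-29238167, Cpne8 at chr15:90487482-90679432 and Cpne9 at chr6:113282307-113305627. The coding sequence of Cpne6 has 557 codons, against 548 in Cpne2, 533 in Cpne3 and 577 in Cpne8, and 533 to 593 over the family. Across the 36 pairs of copines the coding sequences were 61.1% to 75.5% identical. Cpne7 was nearest to Cpne6 (69.6%), followed by Cpne4 (68.3%), while Cpne2 was 65.1% identical. The 4 copines with the highest control level in CPM per kilobase of exon are written out over 60 aligned coding bases, within 1 exon of each gene. This is the stretch at which Cpne2, Cpne3 and Cpne8 together match Cpne6 at the most bases. Cpne6 is read from chr14:55516285-55516344 (plus strand, exon 13), Cpne2 from chr8:94563990-94564049 (plus strand, exon 14), Cpne3 from chr4:19526325-19526384 (minus strand, exon 14) and Cpne8 from chr15:90509499-90509558 (minus strand, exon 16). Capitals mark the bases that differ from Cpne6, and all 4 sequences are written 5′ to 3′ along the coding strand.
Cpne6: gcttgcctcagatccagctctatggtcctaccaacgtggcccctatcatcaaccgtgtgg
Cpne2: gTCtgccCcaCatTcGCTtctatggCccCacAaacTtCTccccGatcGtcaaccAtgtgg
Cpne3: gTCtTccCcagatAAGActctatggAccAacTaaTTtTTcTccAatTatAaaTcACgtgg
Cpne8: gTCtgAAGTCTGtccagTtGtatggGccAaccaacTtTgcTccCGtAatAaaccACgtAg
Even here Cpne2 differed from Cpne6 at 17 of the 60 bases, Cpne3 at 22 and Cpne8 at 23. Exact runs were sought over all annotated transcripts, untranslated parts included. The longest run shared by any pair of copines was 43 bases (Cpne3 and Cpne9), and Cpne6 shared at most 31 bases with any paralog (Cpne5). None of the 36 pairs shared a run of 50 bases.

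The control libraries held 531, 668, 381 and 623 reads of Cpne6, or 33.7, 48.6, 20.9 and 29.5 CPM. The cKO libraries held 97, 33, 8 and 83 reads, or 4.95, 1.497, 0.456 and 3.55 CPM. The groups did not overlap, and the lowest control library stood above the highest cKO library. The mean was 33.2 ± 11.6 CPM (SD, n = 4) in the control and 2.61 ± 2.02 CPM (SD, n = 4) in the cKO libraries. The edgeR fit gave a log2 fold change of −3.66 (SE 0.55, 95% interval −4.85 to −2.46), 12.6-fold lower, with a Benjamini-Hochberg adjusted p = 0.0150. That was the 5th lowest log2 fold change and the 17th lowest p among the 14757 genes, and these are the values for which the family was chosen. In the authors' deposited table Cpne6 had group means of 611.8 and 47.93 normalised counts, a shrunken log2 fold change of −2.42 and an adjusted p of 4.95e-09. In bulk RNA, fewer cells that make a transcript and less of it per cell cannot be told apart. The adjusted p exceeded 0.05 when control S2 (0.0627) or cKO S4 (0.0751) was left out, with log2 fold changes of −3.41 and −3.46.

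Within the cKO group Cpne6 was uneven. Relative to the control mean it stood at 14.9% in S3, 4.51% in S4, 1.37% in S5 and 10.7% in S8, whereas Kcnj10 stood at 1.96%, 1.49%, 2.07% and 1.95% in the same libraries. The coefficient of variation of Cpne6 was 77.3% in the cKO and 34.9% in the control libraries. The nearest tested genes on chromosome 14 gave other values. Carmil3, which encodes a regulator of actin capping and ends 2172 bases before Cpne6, averaged 13.0 CPM in the control and 8.95 CPM in the cKO libraries (log2 fold change −0.54, edgeR adjusted p = 0.691). Pck2, the mitochondrial form of phosphoenolpyruvate carboxykinase, starts 22834 bases after Cpne6 and averaged 3.19 and 3.69 CPM (log2 fold change 0.21, edgeR adjusted p = 0.937).

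**Figure D1:**
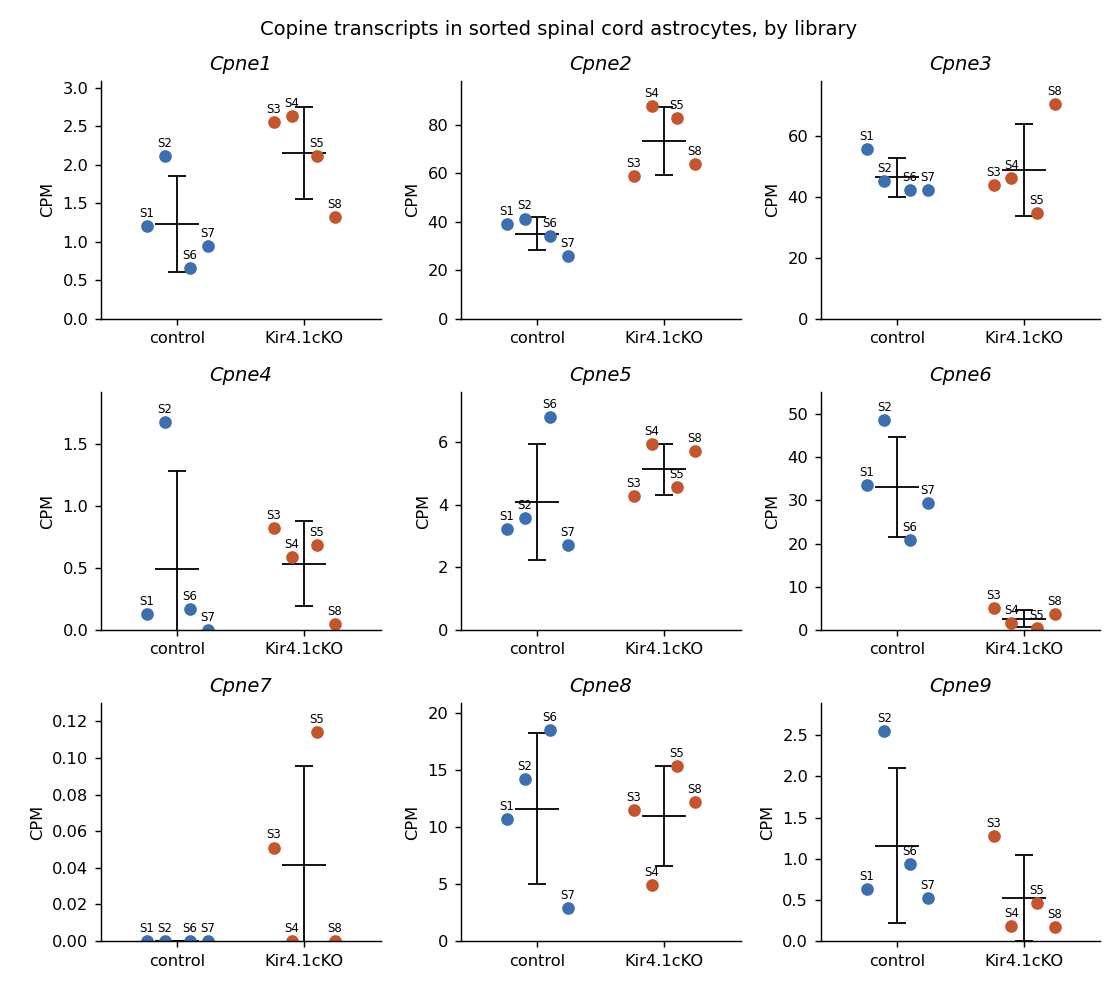
CPM of each copine gene (vertical axes, each on its own linear scale from 0) in the 4 control and 4 cKO libraries, with points for libraries and lines for the mean and SD, which are cut at 0. Cpne6 sits at 20.9 to 48.6 CPM in control and at 0.456 to 4.95 CPM in cKO libraries, and Cpne2 at 26.0 to 41.3 and 58.9 to 87.8 CPM.

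Cpne2 (ENSMUSG00000034361, chr8:94532990-94570531, plus strand) had its higher values in the cKO libraries. It had 616, 568, 624 and 548 reads in the control libraries (39.0, 41.3, 34.3 and 26.0 CPM). The cKO libraries had 1153, 1935, 1457 and 1488 reads (58.9, 87.8, 83.0 and 63.7 CPM). All 4 cKO libraries were above all 4 control libraries. The means were 35.2 ± 6.80 CPM (SD, n = 4) and 73.3 ± 14.2 CPM (SD, n = 4), a log2 fold change of 1.06 (SE 0.21, 95% interval 0.62 to 1.51) or 2.09-fold. With an adjusted p = 0.0533 by edgeR's quasi-likelihood test (unadjusted p = 0.00018), Cpne2 ranked 49th by p and just missed the threshold of 0.05. In the authors' deposited table, group means of 646.7 and 1348 normalised counts, a shrunken log2 fold change of 0.98 and an adjusted p of 0.000346 were given. That table calls 2.87% of the genes with an adjusted p.

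None of the 7 tested paralogs of Cpne6 passed an adjusted p of 0.05 by edgeR, where 0.318% of all genes tested did (0.203% higher and 0.115% lower in the cKO group). A single paralog, Cpne2, had an unadjusted p under 0.05 (9.81% of all genes did), and the same 1 of 7 had cKO libraries all above the control libraries (3.39% of all genes did; 2.94% had them all below, and 6.34% did not overlap in either direction). The DESeq2 and limma-voom fits each called a single paralog, Cpne2, with adjusted p-values of 0.000422 and 0.0476. DESeq2 called 2.26% of the genes with an adjusted p, and limma-voom 0.325% of all genes tested. Cpne4 and Cpne9 had no adjusted p from DESeq2. Cpne2 was also the only paralog called by edgeR with library totals as the scaling (0.42% of the genes tested). The same held with at least 1 count in any library (0.359%) and with at least 10 counts in every library (0.71%). Cpne4 and Cpne9 were not tested with that last filter. No paralog was called with Xist as a covariate (0.19% of all genes) or on log2 FPKM with a pseudocount of 1 (0.0474%) or 0.1 (0.0542%). The log2 fold change was positive for 5 of the 7 and negative for 2, with a median of 0.15 beside −0.02 over all genes tested.

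Cpne3 overlapped between the groups. Its reads gave 56.0, 45.3, 42.5 and 42.3 CPM in the control group and 44.0, 46.4, 34.8 and 70.5 CPM in the cKO group. The highest and the lowest library were both in the cKO group. The log2 fold change was 0.07 (95% interval −0.41 to 0.56, edgeR adjusted p = 0.947), and −0.16 without cKO S8.

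Cpne8, studied in mice as a candidate gene for prion incubation time, ranged more widely. The control libraries had 10.7, 14.2, 18.5 and 2.89 CPM, and the cKO libraries had 11.4, 4.90, 15.3 and 12.2 CPM. The lowest and highest libraries were both controls, and the groups overlapped throughout. The log2 fold change of −0.08 (95% interval −1.14 to 0.98, edgeR adjusted p = 0.976) turned positive with library totals as the scaling (0.040) and with limma-voom (0.15). It also turned positive without control S2, control S6 or cKO S4 (0.035, 0.25 and 0.17).

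Cpne5, known from the developing nervous system, had few reads (49 to 124 in the control and 80 to 134 in the cKO libraries). It stood at 3.23, 3.57, 6.81 and 2.70 CPM in the control group, and the cKO values were 4.29, 5.94, 4.56 and 5.74 CPM. Control S6 was above every cKO library, and the other 3 controls were below all of them. The log2 fold change was 0.33 (95% interval −0.62 to 1.28, edgeR adjusted p = 0.858).

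Cpne1 had 19, 29, 12 and 20 control reads and 50, 58, 37 and 31 cKO reads, which gave 1.23 ± 0.628 and 2.16 ± 0.598 CPM (SD, n = 4 each). The groups overlapped, since control S2 reached 2.11 CPM and cKO S8 only 1.33 CPM. The log2 fold change was 0.81 (95% interval −0.59 to 2.21, edgeR adjusted p = 0.735). The count of this gene is uncertain, because only 718 of its 4507 exon bases (15.9%) are free of other genes that were counted. Gm28036, a predicted gene on the same strand, shares 3755 of the bases and was listed at 0 reads in all 8 libraries. Rbm12, an RNA-binding protein gene on the same strand, shares 404 of the bases and averaged 20.8 CPM in the control and 24.4 CPM in the cKO libraries (log2 fold change 0.23, edgeR adjusted p = 0.852). The authors' counting set aside 0.723% to 0.934% of the reads of each library as ambiguous. Gm28036 and Gm20388, a predicted gene over Cpne7, have 100% of their exon bases shared, and both were at 0 reads. Reads within shared exons were thus not given to these genes, and the level of Cpne1 relative to its full exon length may be set too low. The overlap mode of the counting is not given in the sources used here.

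Cpne4, Cpne9 and Cpne7 were near the limit of the depth. Cpne4 had 2, 23, 3 and 0 control reads and 16, 13, 12 and 1 cKO reads. Of its 28 control reads, 23 came from S2, and its log2 fold change of 0.15 had an interval of −2.49 to 2.79 (edgeR adjusted p = 0.982) and became 2.41 without that library. It turned negative without control S1, S6 or S7 or cKO S3 or S5 (−0.18, −0.15, −0.29, −0.14 and −0.00235). Cpne9 had 10, 35, 17 and 11 reads in the control and 25, 4, 8 and 4 in the cKO libraries, with a log2 fold change of −1.14 (95% interval −3.09 to 0.81, edgeR adjusted p = 0.731), which was −0.42 without control S2 and −2.08 without cKO S3. Control S2 was again the highest, and cKO S3 was above 3 of the 4 controls. Cpne7, the copine known from odontoblast differentiation, had no read in the control libraries and 1, 0, 2 and 0 reads in the cKO libraries. Both groups were at or under 3 reads in sum, so no fold is given for Cpne7.

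**Figure D2:**
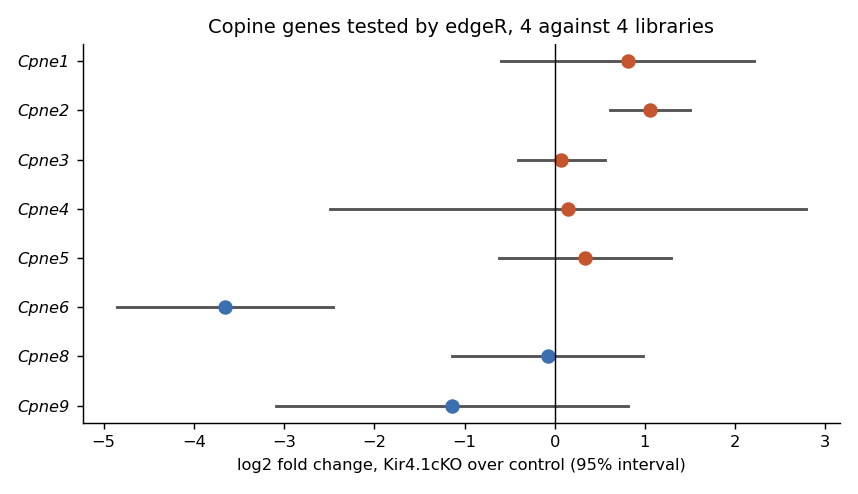
Log2 fold change of cKO over control (horizontal axis, points) with its 95% interval (lines) for the 8 copine genes tested by edgeR, in 4 against 4 libraries; red points are above 0 and blue points below. The interval excludes 0 for Cpne6 (−4.85 to −2.46) and Cpne2 (0.62 to 1.51) and spans it for the other 6.

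Levels of different copines were compared as CPM per kilobase of exon, over the merged exons of all annotated transcripts of a gene. In the control libraries Cpne2 was the most abundant at 10.99 ± 2.13 CPM per kilobase (SD, n = 4), followed by Cpne6 at 7.79 ± 2.72, Cpne3 at 6.52 ± 0.905 and Cpne8 at 2.78 ± 1.59. The ranges of Cpne2 and Cpne6 overlapped, as did those of Cpne6 and Cpne3, so the place of Cpne6 did not stand beyond this spread. Within each control library, however, Cpne2 was above Cpne6 (1.13 to 2.18 times). The range of Cpne2 (8.11 to 12.9) lay above that of Cpne3 (5.93 to 7.85). Cpne8 was below Cpne3 in every library. The other 5 copines averaged 0.300 CPM per kilobase or less in the control libraries. Among them Cpne5 (0.300), Cpne1 (0.273), Cpne9 (0.147) and Cpne4 (0.0894) overlapped.

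In the cKO libraries Cpne2 stood at 22.9 ± 4.43 CPM per kilobase, apart from Cpne3 at 6.86 ± 2.14, which stood apart from Cpne8 at 2.63 ± 1.05. Cpne6 was 4th at 0.614 ± 0.475 CPM per kilobase, and its range of 0.107 to 1.16 took in those of Cpne1 (0.478 ± 0.133) and Cpne5 (0.378 ± 0.0610). If the reads of Cpne1 came only from the bases it does not share, its level would be 1.71 ± 0.874 in the control and 3.001 ± 0.833 CPM per kilobase in the cKO libraries, which would put it 5th and 3rd. The authors' FPKM values gave another order: in the control Cpne2 had 37.1 ± 5.39 FPKM, Cpne8 34.6 ± 18.7, Cpne6 17.9 ± 5.42, Cpne1 17.4 ± 8.12 and Cpne3 10.8 ± 1.55. In the cKO group Cpne6 had 1.61 ± 1.24 FPKM and Cpne2 80.6 ± 20.0 FPKM. The rank of Cpne6 among the control copines was thus 2nd by CPM per kilobase and 3rd by FPKM.

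Cpne6 made up 25.4%, 32.2%, 18.3% and 31.3% of the family's summed CPM per kilobase in the control libraries and 3.92%, 0.960%, 0.301% and 2.43% of it in the cKO libraries. The share of Cpne2 was 38.0% ± 1.78 (SD, n = 4) in the control and 66.9% ± 8.22 (SD, n = 4) in the cKO libraries, and Cpne3 took 23.0% ± 3.90 and 20.3% ± 6.41. Per kilobase, Cpne2 was 1.13 to 2.18 times as high as Cpne6 in the control libraries and 15.8 to 242 times in the cKO libraries. The sum over all 9 copines overlapped between the groups, at 22.1 to 35.5 CPM per kilobase in the control and 29.7 to 36.6 in the cKO libraries. Without Cpne6 the sum was 15.2 to 24.05 and 28.5 to 36.3 CPM per kilobase, with no overlap. Cpne2 alone went from 10.99 to 22.9 CPM per kilobase in these means, and the paralog sum from 21.1 ± 4.02 to 33.4 ± 3.48.

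**Figure D3:**
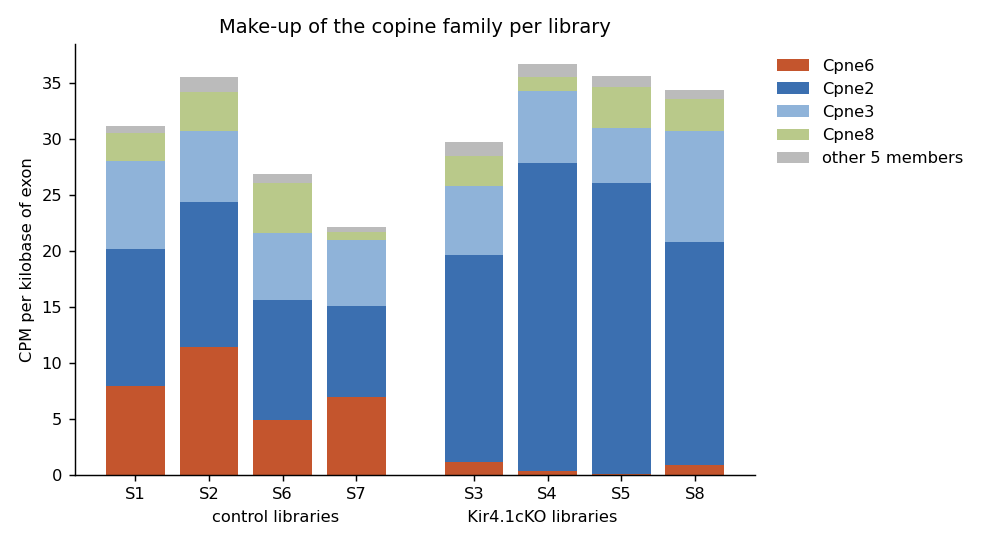
Stacked bars of the summed level of the 9 copines in CPM per kilobase of exon (vertical axis) in each library, with Cpne6, Cpne2, Cpne3, Cpne8 and the other 5 members in separate colours. Cpne6 fills 18.3% to 32.2% of the control bars and 0.301% to 3.92% of the cKO bars, while the whole bars range from 22.1 to 35.5 and from 29.7 to 36.6.

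The genes whose profile over the 8 libraries lay closest to that of Cpne6 were Scube1, Heyl, Efcab3, Lrtm2 and Mall. Likeness was the root mean square difference between log2 CPM values centred on each gene's own mean, among tested genes with at least 1 CPM on average, and the 5 values were 0.700, 0.786, 0.839, 0.875 and 0.876. Scube1, a secreted and cell-surface EGF-repeat protein, had 10.5, 10.99, 8.24 and 9.95 CPM in the control and 4.29, 1.09, 0.171 and 0.642 CPM in the cKO group. Heyl, a transcription factor induced by Notch signalling, had 60.1, 77.3, 48.9 and 54.6 CPM in the control and 27.4, 11.6, 1.65 and 18.2 CPM in the same cKO libraries. Lrtm2, a leucine-rich repeat membrane protein, had 28.3, 29.3, 17.3 and 32.6 CPM and 5.67, 7.12, 0.798 and 2.23 CPM. Mall, a member of the MAL family of membrane proteins, had 2.66, 2.47, 4.83 and 6.30 CPM and 1.02, 0.544, 0 and 0.685 CPM, and Efcab3, a gene for an EF-hand protein, 1.33, 5.53, 1.92 and 1.56 CPM and 0.919, 0.0907, 0 and 0.813 CPM. All 5 had groups that did not overlap and were lowest in cKO S5, the library with the least Cpne6, which the choice by likeness to Cpne6 already favours. Their log2 fold changes and edgeR adjusted p-values were −2.68 and 0.189 for Scube1, −2.03 and 0.185 for Heyl, −2.48 and 0.459 for Efcab3, −2.76 and 0.0488 for Lrtm2, and −2.83 and 0.267 for Mall. The adjusted p of Lrtm2 exceeded 0.05 when any library but cKO S5 was left out (0.0498 without S5, 0.0751 to 0.148 without another), and also with library totals (0.0544), with Xist as a covariate (0.0867) and on FPKM (0.119 and 0.230). Without cKO S3, Scube1 passed with a log2 fold change of −3.93 (edgeR adjusted p = 0.0271). Without control S2 the log2 fold change of Efcab3 was −1.80. DESeq2 called Scube1 (adjusted p = 0.00433), Lrtm2 (2.18e-06) and Mall (0.0201). Efcab3 shares 74.6% of its exon bases with other genes, so its count is uncertain. The choice depends on single libraries: without cKO S5 only 1 of the 5 remained among the closest 5, and without any other single library 2 to 4 did.

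**Figure D4:**
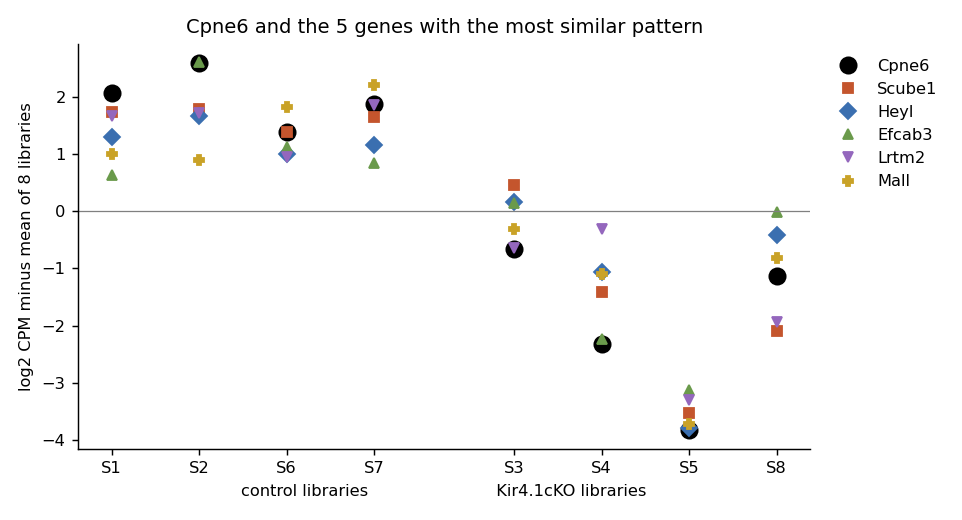
Log2 CPM minus the gene's mean over the 8 libraries (vertical axis) for Cpne6 and the 5 genes most like it, by library (horizontal axis). Cpne6 runs from 1.39 to 2.60 in the control libraries and from −3.84 to −0.66 in the cKO libraries, and all 6 genes are lowest in cKO S5.

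Genes for other C2 proteins, annexins and reported partners of copines were read from 4 lists by name. No member of any of the 4 lists passed an adjusted p of 0.05 by edgeR. Of 31 genes for proteins with tandem C2 domains, the architecture of synaptotagmins, 20 were tested, and 1 had an unadjusted p under 0.05, beside 9.81% of all genes tested. Their median log2 fold change was −0.33, beside −0.02 over all genes. Syt11, a synaptotagmin that does not bind calcium, had 292 to 344 CPM in the control and 193 to 247 CPM in the cKO libraries, with no overlap (log2 fold change −0.57, edgeR adjusted p = 0.154, DESeq2 adjusted p = 0.0129). Syt7, a calcium sensor of exocytosis, averaged 5.22 and 2.28 CPM (log2 fold change −1.20, edgeR adjusted p = 0.602) and its groups overlapped. Control S7 alone had 12.1 CPM against 1.71 to 4.08 in the other controls, and the log2 fold change was −0.35 without it and −1.80 without cKO S4.

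Of 18 other C2 proteins that sense calcium, 14 were tested. An unadjusted p under 0.05 was reached by 1 upward and 2 downward (9.81% of all genes in either direction), and the median log2 fold change was −0.08, beside −0.02. Unc13c, a vesicle-priming factor, had 20.9, 33.6, 34.0 and 30.7 CPM in the control and 11.95, 5.08, 1.25 and 17.7 CPM in the cKO group (log2 fold change −1.72, edgeR adjusted p = 0.283). Its libraries did not overlap, and its lowest library was again cKO S5. Cadps2, a regulator of dense-core vesicle release, averaged 7.29 and 1.88 CPM (log2 fold change −1.94, edgeR adjusted p = 0.387, and −2.70 without cKO S8), and its groups overlapped. Cadps, of the same list, went the other way at 53.2 and 75.2 CPM (log2 fold change 0.50, edgeR adjusted p = 0.395). Its cKO libraries were all above the control libraries (3.39% of all genes did so).

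Annexins also bind phospholipids with calcium, through a fold unrelated to C2. Of 12 annexin genes 7 were tested, 1 had an unadjusted p under 0.05 (9.81% of all genes did), and 2 had all cKO libraries above the control libraries (3.39% of all genes did). Their median log2 fold change was 0.27, beside −0.02. Anxa6 had 58.1 to 63.0 CPM in the control and 81.1 to 131 CPM in the cKO libraries (log2 fold change 0.75, edgeR adjusted p = 0.102, DESeq2 adjusted p = 0.00786). Anxa2 had 3.93 to 5.66 and 6.58 to 9.20 CPM (log2 fold change 0.68, edgeR adjusted p = 0.558). Of 10 genes for reported binding partners of copines all 10 were tested, and an unadjusted p under 0.05 was reached by 1 upward and 1 downward (9.81% of all genes in either direction), with a median log2 fold change of −0.06, beside −0.02. Ntrk2, which encodes the TrkB receptor, had 1032 to 1440 CPM in the control and 829 to 866 CPM in the cKO libraries (log2 fold change −0.50, edgeR adjusted p = 0.250, DESeq2 adjusted p = 0.0477). Ywhag, a 14-3-3 protein, averaged 75.3 and 105 CPM (log2 fold change 0.48, edgeR adjusted p = 0.488).

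Because copine-6 is best known from neurons, markers of other cells were set beside it. The 11 neuronal markers summed to 71.8 to 121 CPM in the control and 45.8 to 76.1 CPM in the cKO libraries, 1.75 times as high in the control mean. None of the 10 tested passed an adjusted p of 0.05 by edgeR, while 3 (Snap25, Gad2 and Syp) had an unadjusted p under 0.05 (9.81% of all genes did) and control libraries all above the cKO libraries (2.94% of all genes did). In 8 of the 10 the log2 fold change was negative, with a median of −1.04 beside −0.02 over all genes. None of the 11 was at 0 in all libraries of a group, and Snap25, a synaptic SNARE protein, had 21.9 to 40.0 CPM in the control and 13.2 to 21.03 CPM in the cKO libraries. Syp, a synaptic vesicle protein, had 9.39 to 32.8 and 3.99 to 9.20 CPM. The other defining markers stood at 1.18 to 4.94 and 0.514 to 2.45 CPM for Rbfox3, 0.189 to 4.12 and 0.204 to 0.862 CPM for Slc17a6, and 4.66 to 27.0 and 2.31 to 4.33 CPM for Gad2. The library with the most Cpne6, control S2, had a neuronal sum of 71.8 CPM, the lowest of the controls. The library with the least Cpne6, cKO S5, had the highest neuronal sum of its group, 76.1 CPM. Much of that sum came from Nefm (20.4 CPM) and Nefl (18.1 CPM), at 5.52 to 9.03 and 6.76 to 13.7 CPM in the other cKO libraries. Snap25 and Gad2 were also highest in S5 within the cKO group (21.03 and 4.33 CPM), while Syp was lowest there (3.99 CPM). The 6 oligodendrocyte precursor markers summed to 390 to 1349 CPM in the control and 293 to 581 CPM in the cKO libraries. Of these 4 of 6 had an unadjusted p under 0.05 (9.81% of all genes in either direction), all lower in the cKO group, and none passed an adjusted p of 0.05 by edgeR. Sums of some other cell types were lower in the cKO means as well, and others were higher. Control and cKO means were 24.8 and 29.2 CPM for microglia, 13.1 and 15.6 for ependymal cells, and 0.196 and 0.497 for Schwann cells. The 5 fibroblast markers summed to 110 to 508 CPM in the control and 76.1 to 137 CPM in the cKO libraries, a ratio of 2.23 between the means. Much of this ratio rests on control S6, which had 508 CPM against 110 to 183 CPM in the other controls. All 5 log2 fold changes were negative (median −1.62), as were 7618 of the 14757 over all genes tested. Of the 5 markers 2 had an unadjusted p under 0.05 (9.81% of all genes did). One of the 5, Col1a2, a collagen gene, averaged 121 and 73.8 CPM with no overlap (log2 fold change −0.71, edgeR adjusted p = 0.148). The 7 endothelial markers summed to 38.9 to 66.6 and 19.1 to 50.6 CPM, a ratio of 1.66. All 7 log2 fold changes were negative (median −0.76), and 2 had an unadjusted p under 0.05 (9.81% of all genes did). The 9 oligodendrocyte markers summed to 1466 to 2934 and 978 to 2406 CPM, a ratio of 1.32. All 9 log2 fold changes were negative (median −0.46), and 3 had an unadjusted p under 0.05 (9.81% of all genes did). Mog and Mal had control libraries all above the cKO libraries (2.94% of all genes did). No fibroblast, endothelial or oligodendrocyte marker passed an adjusted p of 0.05 by edgeR. The summed levels of all 11 marker lists overlapped between the groups, and the part of any of them in the level of Cpne6 was not tested.

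**Figure D5:**
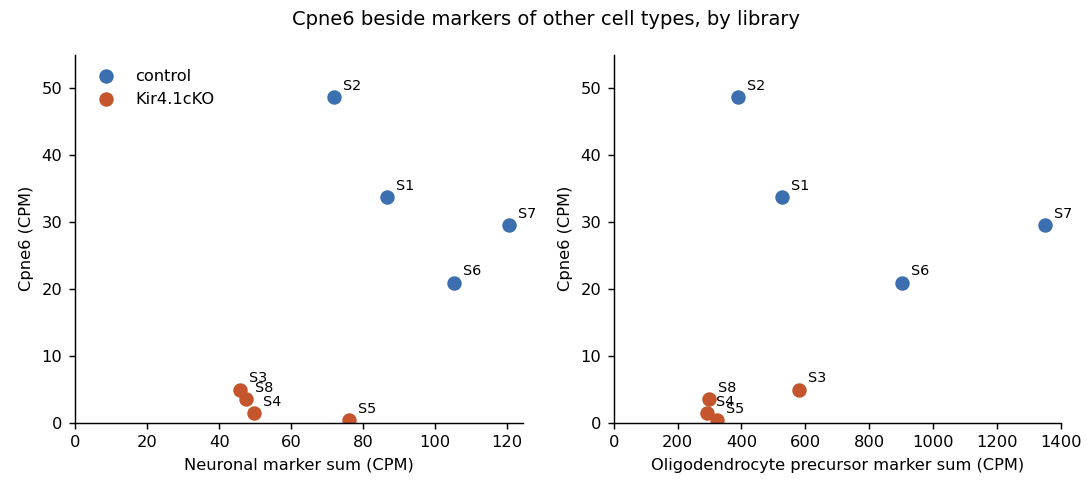
Cpne6 in CPM (vertical axes) against the summed CPM of 11 neuronal markers (left) and of 6 oligodendrocyte precursor markers (right), with 1 point per library. Control S2 has the highest Cpne6 (48.6 CPM) at a neuronal sum of 71.8 CPM, and cKO S5 the lowest (0.456 CPM) at 76.1 CPM.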

How the data were processed

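Per the submitters' processing notes, the authors used FastQC 0.11.4, TopHat2 2.0.11, Bowtie2 2.2.3, HTSeq 0.6.1p1, DESeq2 1.14.1 and Cuffnorm (Cufflinks 2.2.1) with GRCm38, and the NuGEN RNA-Seq V2 kit made the cDNA, per the labels. The strand setting is not given in the sources used here. The authors deposited raw counts per library for 39179 identifiers. The 5 summary lines of each count table, which name no gene, held 56.4% to 61.7% of its reads and were left out. The authors deposited FPKM for 39171 identifiers. In the authors' deposited comparison the file headers name group means (a signal of normalised counts), a log2 fold change, its standard error and Wald statistic (each a score here), and a p-value with its adjustment. Symbols and coordinates (GENCODE M21, GRCm38) were matched by identifier for 37607 of the 39179.

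Counts were tested with edgeR 4.0.16 (R 4.3.3; quasi-likelihood test, TMM, filterByExpr, no covariate), with Benjamini-Hochberg adjustment over 14757 genes and a threshold of 0.05. CPM used TMM-adjusted library sizes. Likeness used a prior count of 2. The alternatives were RLE size factors, library totals, other count filters, Xist as a covariate (no label gives the sex), DESeq2 1.42.0, limma-voom (limma 3.58.1), log2(FPKM + 1) and log2(FPKM + 0.1) with limma, and leaving out each library. Per length, shares were also computed without division by length, from FPKM and, an alternative chosen after seeing the data, over unshared exon length. The edgeR fit was tested on simulated counts with known changes. It recovered 28.8% of log2 changes of size 1, 57.1% of size 2 and 82.8% of size 3, with 4 false calls. Changes of that order can thus be missed at this sample size. Identities of the 36 pairs came from global pairwise alignments of the coding sequences, counted over aligned bases without gaps. The 60-base stretch was taken from an alignment of the 9 coding sequences with mafft. Python 3.11.15 and matplotlib 3.10.9 made the tables and figures.

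The members and lists were chosen with earlier results of these data known. Named were all 9 copines, Kcnj10, genes overlapping or next to a copine, and the 5 genes most like Cpne6 (no predicted genes). In each of the 4 lists, members past the threshold or else the 2 with the lowest p were named. Cadps was added beside Cadps2 after its values were seen. The cell markers named (Aldh1l1, Slc1a2, Aqp4, Snap25, Gad2, Syp, Rbfox3, Slc17a6, Nefl, Nefm, Col1a2, Mog and Mal) come from the marker lists. But for the defining neuronal markers, they were chosen after their values were seen. The other marker lists were oligodendrocyte, microglia, endothelial, mural, fibroblast, ependymal, Schwann and erythroid. Mean sums in the control and cKO libraries were 24.8 and 29.2 CPM for microglia, 43.4 and 36.8 for mural cells, 13.1 and 15.6 for ependymal cells, 0.196 and 0.497 for Schwann cells and 5.34 and 2.98 for erythroid cells. Of the partner list, 11 names gave 10 genes.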

Additional observations from a re-analysis of the deposited data

Results flagged for a closer look

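Each value here is a library whose gap to the nearest of the other 3 libraries of its group was past the 95% limit of Dixon's outlier test. Chance gives about 1 such library in 20 groups, so 2.35 of the 47 groups examined would be reached, and 6 were. Among the copines only Cpne4 was picked out, with 1.67 CPM in control S2 against 0 to 0.165 CPM in the other controls. The neuronal marker sum was 76.1 CPM in cKO S5 against 45.8 to 49.6 CPM in the other cKO libraries, and cKO S5 also had the least Cpne6 (0.456 CPM). Nefm and Nefl gave 20.4 and 18.1 CPM of the S5 sum. The oligodendrocyte precursor sum was 581 CPM in cKO S3, the cKO library with the most Cpne6 (4.95 CPM), against 293 to 322 CPM in the others. Among the controls the pairing was the reverse, since S2 had the most Cpne6 (48.6 CPM) and the lowest precursor sum (390 CPM). The astrocyte sum was 23017 CPM in cKO S4 against 18528 to 18910 CPM. The mural cell sum was 29.7 CPM in control S7 against 47.4 to 49.1 CPM, and 17984 genes were detected in control S7 against 18975 to 19111 in the other controls.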

How the results depend on the processing

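The log2 fold change of Cpne6 stayed negative in every setting that tested it, from −3.95 to −2.96, and from −4.15 to −3.31 with 1 library left out. Its adjusted p missed 0.05 with FPKM and limma (−2.96, adjusted p = 0.0653, with pseudocount 1, and −3.81, adjusted p = 0.135, with pseudocount 0.1) and without control S2 or cKO S4. It was not tested with at least 10 counts in every library. Of the paralogs only Cpne2 passed with library totals (adjusted p = 0.0326), at least 1 count in any library (0.0280), at least 10 in every library (0.0248), DESeq2 and limma-voom. With 1 library left out, RLE size factors, Xist as a covariate or FPKM, 0 passed. Cpne4 and Cpne9 were not tested with at least 10 counts in every library and had no adjusted p from DESeq2. Over all genes, 47 passed. The alternatives gave 87 with 1 count in any library, 84 with 10 in every library, 28 with Xist, 306 with DESeq2, and 7 and 8 with FPKM (pseudocounts 1 and 0.1), and 4 (without cKO S4) to 45 with 1 library left out. The share of Cpne6 in the control family was 26.8%, 15.5% from FPKM, and 25.01% to 29.6% with 1 library left out; in the cKO it was 1.90%, and 1.23% to 2.44%. Cpne3 (−0.16 without cKO S8, −0.16 to 0.21 with 1 library left out), Cpne4 (−0.092 and −0.087 with FPKM, −0.29 to 2.41 with 1 library left out), Cpne8 (0.040 with library totals, 0.15 with limma-voom, −0.39 to 0.25 with 1 left out) and Pck2 (−0.056 without cKO S8, −0.0075 without cKO S3, up to 0.44) changed sign. Lrtm2 missed 0.05 with library totals, with Xist, with FPKM, and on leaving out any single library but cKO S5. Apart from the changes that come from fewer samples or another set of genes, the cause was not tested. No paired analysis was possible because the groups share no replicate number. Few reads limit Cpne1, Cpne4, Cpne7 and Cpne9.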
